A study of Homo sapiens with 8 samples.

Results

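The citrate cycle and the enzymes that bring pyruvate into it were followed as a list of 31 genes, given by symbol. The list was chosen with earlier results of these data known. All 31 were found among the 58233 gene identifiers of the count table. They fall into 12 enzyme steps, from the mitochondrial pyruvate carrier (MPC1, MPC2) and the pyruvate dehydrogenase complex (PDHA1, PDHB, DLAT, DLD, PDHX), through pyruvate carboxylase and the phosphoenolpyruvate carboxykinases (PC, PCK1, PCK2), citrate synthase (CS), ATP citrate lyase (ACLY) and aconitase (ACO1), to the isocitrate dehydrogenases (IDH1, IDH2, IDH3A, IDH3B, IDH3G), the oxoglutarate dehydrogenase complex (OGDH, OGDHL, DLST), succinyl-CoA synthetase (SUCLA2, SUCLG1, SUCLG2), succinate dehydrogenase (SDHA, SDHB, SDHC, SDHD), fumarase (FH) and the malate dehydrogenases (MDH1, MDH2).

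Pyruvate made by glycolysis enters mitochondria through the carrier, where pyruvate dehydrogenase turns it into acetyl-CoA and pyruvate carboxylase turns it into oxaloacetate. Citrate synthase joins these products, and the cycle then oxidises citrate back to oxaloacetate while passing electrons to NAD and, at succinate dehydrogenase, to the respiratory chain. In proliferating epithelial cells the same intermediates also leave the cycle, for instance as citrate that ACLY splits in the cytosol to supply lipid synthesis and histone acetylation.

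All groups carried oncogenic H-Ras in MCF10A, an established line derived from human mammary epithelium that forms no tumours on its own. Control cells (genotype WT) were compared with cells labelled RBM6-KO, here called knockout cells. They are RBM6-KO1, a single clone lacking the splicing regulator RBM6 that was made with a pair of guides and a Cas9 nickase. Each genotype was left untreated or exposed to 5 Gy of ionizing radiation (IR) from an X-ray machine and left for 12 h before RNA was taken. Messenger RNA was sequenced from 2 biological replicates (A and B) of each of the 4 groups, 8 libraries in all.

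The libraries held 15355281 to 29832009 counts on genes, so that 3 counts, the limit that a count of 0 allows, correspond to 0.0965 to 0.204 CPM, the count scaled by library size. RBM6 itself was measured at 61.4 to 68.7 normalised CPM (CPM corrected by edgeR's TMM factors) in the 4 untreated libraries and at 33.9 to 54.5 in the 4 irradiated ones, and the knockout differed from control by a log2 fold change of -0.14 (standard error, SE, 0.15, adjusted p = 0.711, edgeR) without IR and -0.40 (SE 0.20, adjusted p = 0.535, edgeR) after IR. These gene-level counts therefore give no check of the knockout, and the deletion and the protein were not analysed here. The 7 markers of basal mammary epithelium were above 1 CPM in every library, whereas the 3 luminal hormone-sensing markers (0.184 to 0.750 CPM summed) and the 4 leukocyte markers (at most 0.245 CPM summed) stayed under 1 CPM. All 4 pan-epithelial markers were above 1 CPM, as were 2 of 6 fibroblast markers and 1 of 3 endothelial markers, whose levels differed by genotype and are given with that comparison. The labels name no batch.

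Together the 31 genes took 0.253% to 0.353% of all counts. Their summed level was 2972 and 3001 normalised CPM in untreated control cells (replicates A and B) and 3491 and 3382 after IR. In knockout cells it was 2717 and 2637 without IR and 3167 and 3402 after IR. The untreated knockout libraries were the lowest of all, and the libraries taken after IR lay above the untreated libraries of the same genotype.

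Levels of different genes were compared as normalised CPM per kb of the longest coding transcript. MDH2, the mitochondrial malate dehydrogenase, was the most abundant member at 145 ± 5.93 CPM per kb in untreated control cells (SD, n = 2), and it kept the first rank in each of the 4 groups. PCK1, the cytosolic phosphoenolpyruvate carboxykinase of gluconeogenic tissues, was at 0 counts in 7 libraries and at 3 counts in replicate B of untreated knockout cells. It was too low for any test and is the only member for which this holds. Of the 31 members 29 were tested in every comparison, and OGDHL was tested in all but the IR comparison within knockout cells.

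Subunits of one enzyme were unequally abundant. IDH3A, the catalytic subunit of the NAD-dependent isocitrate dehydrogenase, stood at 2.39 ± 0.139 CPM per kb in untreated control cells (SD, n = 2), against 89.5 ± 4.08 for IDH3B and 39.8 ± 0.549 for IDH3G, the other subunits of that enzyme. Of the exonic bases of IDH3A 2608 are shared with ACSBG1 on the other strand, and how reads from them were counted is not given in the sources used here, so this level is uncertain. IDH3A ranked 29 of the 31 members in each of the 4 groups, above OGDHL and PCK1. The order among the succinate dehydrogenase subunits was less certain. SDHB had the highest level per kb of coding transcript in untreated control cells at 94.4, followed by SDHC at 73.4, SDHA at 61.0 and SDHD at 36.4 CPM per kb. When the length of all annotated exons was used instead, SDHC led at 50.5 CPM per kb, ahead of SDHB at 45.0, SDHA at 18.9 and SDHD at 17.5.

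**Figure D1:**
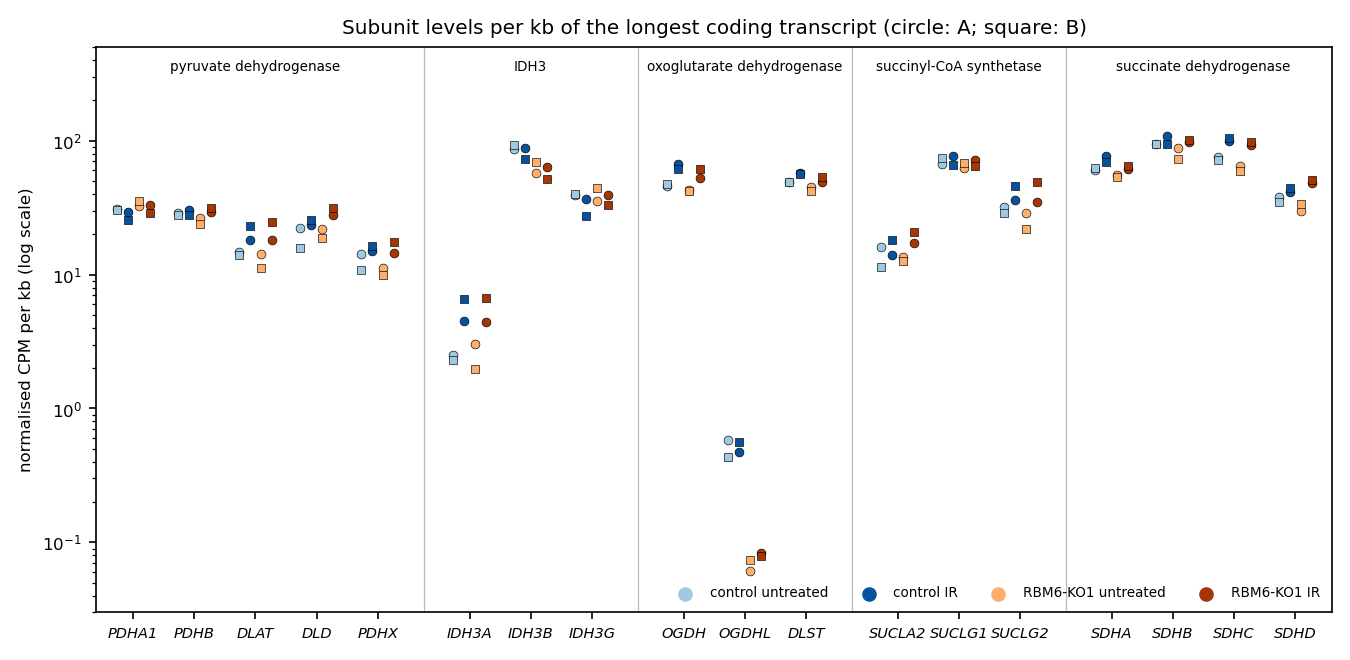
Level of each subunit of 5 enzymes as normalised CPM per kb of the longest coding transcript on a log axis, with 1 point per library (circle, replicate A; square, replicate B) and colours for the 4 groups. IDH3A lies below IDH3B and IDH3G in every library, and OGDHL lies far below OGDH, with the 4 knockout libraries at 0.0607 to 0.0834 CPM per kb and the 4 control libraries at 0.434 to 0.579.

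Knockout cells were first compared with control cells without IR. As the knockout cells are a single clone, RBM6 loss cannot be told apart from other differences of that clone in these data. Of the 30 members tested, 3 fell in knockout cells and 0 rose at an adjusted p under 0.05 by edgeR's quasi-likelihood F test, where p-values were adjusted over all genes by the Benjamini-Hochberg method. These were OGDHL, PC and IDH3B. Of all 15556 genes tested 3.73% fell and 2.38% rose at this threshold. A fall of at least 2-fold was reached by 1 member, OGDHL, and 3.12% of all genes passed with at least that change in either direction. DESeq2's Wald test also called 3 members lower and 0 higher, where 3.25% of all genes were called lower. At an unadjusted p under 0.05 there were 5 lower members and 0 higher in edgeR, against 9.66% of all genes lower.

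Below the threshold, most members pointed the same way. Values under 0 were found for 23 of the 30 members and over 0 for 7, with a median log2 fold change of -0.18, whereas 51.0% of all genes tested had a value over 0 and the median of all genes was 0.01. Both knockout libraries lay below both control libraries for 17 members and above both for 2. Among all genes tested these shares were 23.9% and 23.8%. CPM are shares of a library, so that fewer cells of a kind and less RNA per cell cannot be told apart in these bulk samples. The base composition of genes also moved with this comparison. Across 15444 genes the log2 fold change had a rank correlation with GC content of -0.29, as a description across genes that share libraries. Among the members it was -0.44. Their median GC content was 46.0% against 47.8% for all genes. After a spline trend in GC content, length and expression was subtracted, the median of the members was -0.19.

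Markers of cell types also differed between the genotypes. Without IR the basal marker KRT14 had a log2 fold change of 0.78 (adjusted p = 0.0156, edgeR). That of CDH3, also basal, was -0.62 (adjusted p = 0.0176, edgeR), and no other basal marker passed. The basal markers summed to 10464 to 13090 normalised CPM in untreated control cells and 9548 to 9832 in untreated knockout cells. After IR these sums were 9471 to 10257 and 7956 to 8228. DCN, a matrix proteoglycan of fibroblasts, was at 69.4 and 66.5 normalised CPM in untreated control cells and at 145 and 112 in untreated knockout cells, a log2 fold change of 0.91 (adjusted p = 0.00147, edgeR), and the value was 1.11 (adjusted p = 0.0389, edgeR) after IR. EPCAM, an epithelial adhesion protein, fell from 21.4 and 26.7 to 6.58 and 7.47 normalised CPM, a log2 fold change of -1.79 (adjusted p = 4.43e-05, edgeR), and the value was -1.82 (adjusted p = 0.0151, edgeR) after IR. The 6 fibroblast markers summed to 80.9 to 81.3 normalised CPM in untreated control cells and 118 to 154 in untreated knockout cells, and to 90.0 to 107 and 172 to 210 after IR. COL1A2, COL3A1, LUM and PDGFRA of that list were under 1 CPM, and COL1A1 had log2 fold changes of -0.74 without IR and -1.17 after IR, opposite in sign to DCN and short of the threshold (adjusted p = 0.0864 and 0.0612, edgeR). The 4 pan-epithelial markers summed to 715 to 774 and 449 to 562 without IR and to 497 to 669 and 375 to 439 after IR. The 3 endothelial markers, of which PECAM1 alone was above 1 CPM, summed to 1.78 to 2.46 and 3.37 to 6.32 without IR and to 1.25 to 1.94 and 3.97 to 4.11 after IR. The part of these shifts in the members' genotype differences was not tested.

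The genotypes were next compared after IR. Of the 30 members tested without a replicate block, only OGDHL passed, with a fall of more than 2-fold, and 0 members rose, also in DESeq2's Wald test. With a term for the replicate letter (a replicate block), more members and a larger share of all genes passed, as given at the end. The background was 0.84% of 15587 genes lower, 0.372% higher and 1.17% passing with at least a 2-fold change, and DESeq2 called 1.82% of all genes lower. At an unadjusted p under 0.05, edgeR had 2 members lower (OGDHL and IDH3B) and 0 higher, a share near that of all genes, of which 6.71% were lower. The median log2 fold change was -0.01, as it was 0.02 for all genes, with 13 members over 0 and 17 under 0. The log2 fold change had a rank correlation with GC content of -0.31 across all genes and -0.64 among the members. Both knockout libraries lay below both control libraries for 8 members and above for 2, against 20.2% and 18.5% of all genes. The sole call was lost without replicate B of control cells after IR (adjusted p = 0.0602, edgeR) or without replicate B of knockout cells after IR (adjusted p = 0.0731, edgeR), each of which left 0 members past the threshold.

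**Figure D2:**
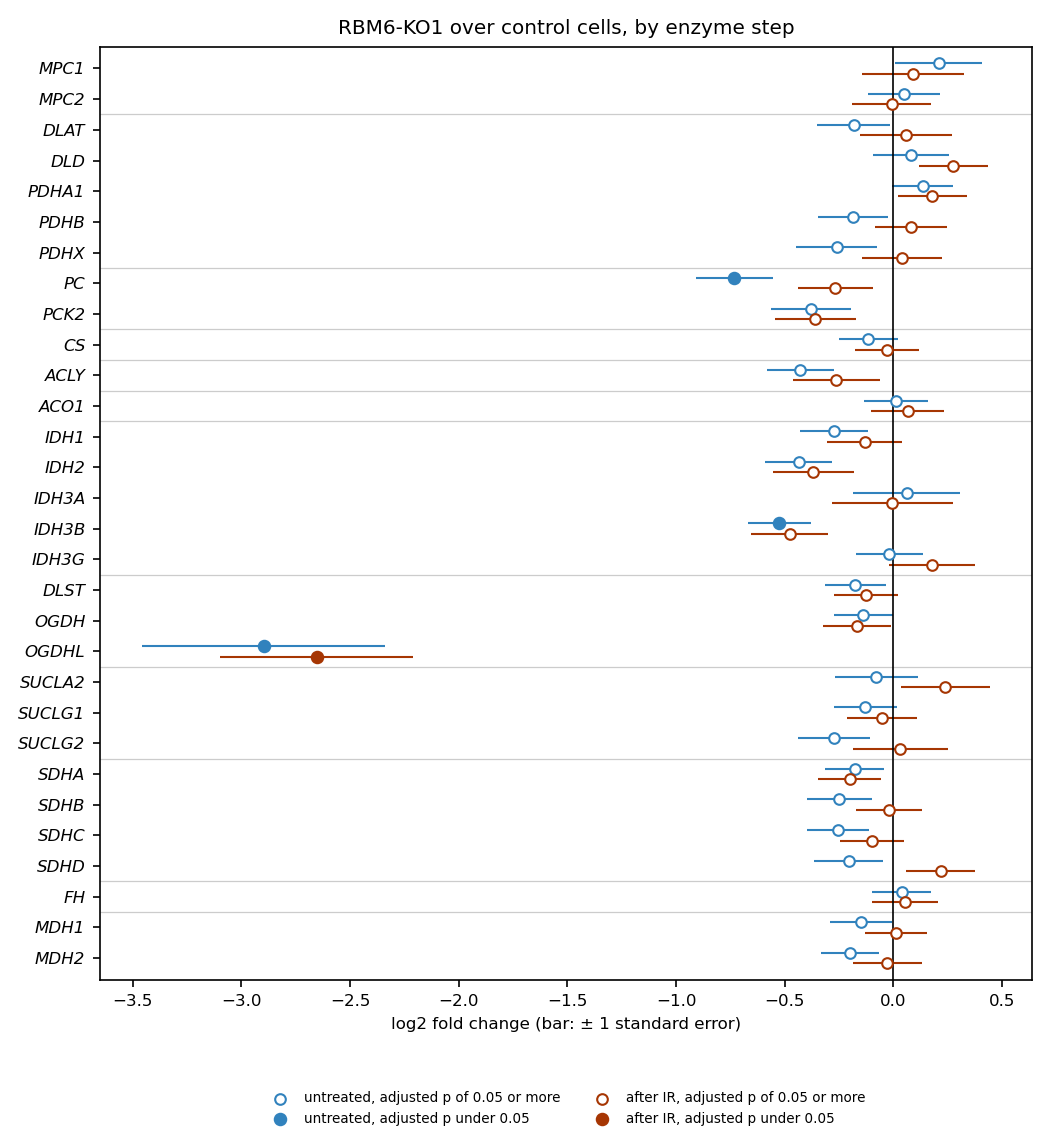
Log2 fold change of knockout over control cells for the 30 members tested, ordered by enzyme step, without IR (blue) and after IR (red), with bars of 1 standard error. Filled points have an adjusted p under 0.05 in edgeR. OGDHL stands apart at -2.90 and -2.65, PC and IDH3B are the other filled points without IR, and the open points lie between -0.48 and 0.28.

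The response to IR was then compared between 12 h after 5 Gy and no treatment within each genotype. In control cells 1 of the 30 members tested rose, IDH3A, and 0 fell at an adjusted p under 0.05 (edgeR), where 2.81% of 15412 genes rose and 2.91% fell. The rise of IDH3A was also past 2-fold, as were 3.59% of all genes in either direction among those that passed. In knockout cells 3 of the 29 members tested rose, namely IDH3A, SDHC and SDHD, and 0 fell. Among 15598 genes 2.44% rose and 3.23% fell. IDH3A was again the only member with at least a 2-fold change, against 3.11% of all genes. DESeq2's Wald test called 2 members higher in control cells and 9 in knockout cells, and 0 lower in either, where it called 4.42% and 6.14% of the genes with an adjusted p higher. At an unadjusted p under 0.05, edgeR had 7 members higher in control cells, 12 higher in knockout cells and 0 lower in either, against 13% and 14.8% of all genes higher.

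The counts depended on single libraries. In control cells 0 members passed without replicate A or without replicate B of the untreated cells, where 2.29% and 1.8% of all genes passed in either direction. Without replicate A after IR 8 members and 27.8% of all genes passed, and without replicate B after IR 3 members and 5.91% did. In knockout cells 0 members passed without replicate B of the untreated cells or without replicate B after IR, where 2.19% and 2.74% of all genes did. Without replicate A after IR 9 members and 21.8% of all genes passed. In the omissions listed with the lowest and the highest counts of members, the share of all genes that passed moved the same way.

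Most members had values over 0 after IR in both genotypes. Log2 fold changes were over 0 for 24 of 30 members in control cells, with a median of 0.20, and for 22 of 29 in knockout cells, with a median of 0.25. The corresponding medians of all genes were 0.02 and -0.01. Both irradiated libraries lay above both untreated libraries for 16 members in control cells and below both for 2, where 29.5% and 27.6% of all genes did so. In knockout cells the count was 20 higher and 0 lower, where all genes gave 32.6% and 29.5%. The rank correlation of log2 fold change with GC content across all genes was -0.26 in control cells and -0.24 in knockout cells. Among the members it was -0.39 and -0.44. With the spline trend subtracted the medians of the members were 0.20 and 0.19.

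No library enters the IR comparisons of both genotypes. Among the 29 members tested in both, 26 had the same sign, 21 over 0 and 5 under 0, and the value was larger in knockout cells for 22. Of all 14866 genes tested in both, 83.6% had the same sign. Across these 29 members the 2 sets of log2 fold changes had a Pearson correlation of 0.90, against 0.79 over the 14866 genes, given as a description. The untreated knockout libraries also enter the genotype comparison without IR, so the 2 comparisons are not independent. The difference between the IR responses was tested directly as an interaction over all 8 libraries, and 0 of 30 members passed in edgeR. The background was 0% of 16549 genes. Interaction values were over 0 for 23 of the 30 members and for 48.7% of all genes. At an unadjusted p under 0.05 there were 0 members and 306 genes (1.85%) in edgeR, and DESeq2's Wald test also passed 0 members. The IR response of no member was thus shown to differ between the genotypes.

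At the entry of pyruvate, the carrier genes MPC1 and MPC2 moved little. Their log2 fold changes ran from -0.01 to 0.21 between genotypes and from -0.12 to 0.06 after IR, and none of these passed. MPC1 ranged from 12.7 to 17.8 normalised CPM over the 8 libraries and MPC2 from 35.2 to 43.1.

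The 5 subunits of the pyruvate dehydrogenase complex did not move alike in size or sign after IR. None passed in edgeR in any comparison without a replicate block. PDHA1, the catalytic alpha subunit of the first enzyme, had log2 fold changes of -0.16 in control cells and -0.15 in knockout cells. PDHB had 0.01 in control cells and 0.25 in knockout cells. DLAT, the acetyltransferase core, had the largest values of the complex, 0.51 (adjusted p = 0.106, edgeR) in control cells and 0.73 (adjusted p = 0.0569, edgeR) in knockout cells. It was measured at 57.5 and 53.9 normalised CPM in untreated control cells, 70.0 and 90.1 after IR, 55.7 and 43.1 in untreated knockout cells and 70.5 and 95.8 after IR. The irradiated libraries were above the untreated ones in both genotypes, and replicate B was the higher of each irradiated pair. PDHX, which anchors the third enzyme to the core, and DLD, the dihydrolipoamide dehydrogenase that other complexes share, had values of 0.31 and 0.35 in control cells and 0.59 and 0.53 in knockout cells. DLAT shares 1004 exonic bases with PIH1D2 on the other strand, and the strandedness of the counting is not given in the sources used here.

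PC, which carboxylates pyruvate to oxaloacetate, was measured at 58.2 and 86.4 normalised CPM in untreated control cells and at 43.1 and 44.9 in untreated knockout cells. After IR it stood at 63.3 and 57.0 in control cells and at 45.4 and 54.0 in knockout cells. Both knockout libraries were below both control libraries in each condition, and replicate B of untreated control cells was the highest of all. Without IR the log2 fold change was -0.73 (SE 0.18, adjusted p = 0.0185, edgeR), a 1.66-fold lower level. It was -0.40 (adjusted p = 0.568, edgeR) when that highest library was left out, and with all 8 libraries in 1 fit the call was lost as well (adjusted p = 0.0794, edgeR). After IR the value was -0.27 (SE 0.17, adjusted p = 0.683, edgeR), and the interaction was 0.44 (SE 0.27, unadjusted p = 0.130, adjusted p = 1.0, edgeR). Exons of PC share 621 bases with LRFN4 on the other strand, which itself held 908 to 1550 counts per library.

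PCK2, the mitochondrial phosphoenolpyruvate carboxykinase, lay between 19.8 and 29.8 normalised CPM. Its log2 fold changes in knockout cells were -0.38 without IR and -0.36 after IR, and neither passed (adjusted p = 0.285 and 0.567, edgeR).

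CS, which makes citrate, had log2 fold changes of -0.11 and -0.03 between genotypes and of 0.19 and 0.25 after IR, and none passed. ACLY, which splits citrate in the cytosol, gave larger values. It was measured at 195 and 203 normalised CPM in untreated control cells and 278 and 321 after IR, and at 171 and 127 in untreated knockout cells and 206 and 291 after IR. The irradiated libraries were higher in both genotypes, but replicates A and B differed more in knockout cells. After IR the log2 fold change was 0.58 (SE 0.16, adjusted p = 0.0536, edgeR) in control cells and 0.72 (SE 0.20, adjusted p = 0.0644, edgeR) in knockout cells. DESeq2's Wald test, by contrast, called ACLY in control cells (adjusted p = 0.0322) and in knockout cells. In knockout cells that test called 9 members higher, so ACLY was not alone in depending on the test. Its genotype difference without IR was -0.43 (adjusted p = 0.128, edgeR). ACO1, the cytosolic aconitase that also acts as an iron-regulatory protein, had values of 0.01 and 0.06 between genotypes and 0.30 and 0.32 after IR, and none passed.

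IDH3A showed the largest response to IR of the list. It stood at 10.2 and 9.37 normalised CPM in untreated control cells and at 18.3 and 26.9 after IR. In knockout cells it stood at 12.4 and 8.02 without IR and at 18.1 and 27.1 after IR. All 4 irradiated libraries were above all 4 untreated libraries, and replicate B was the higher of each irradiated pair. IR thus gave a log2 fold change of 1.21 (SE 0.25, adjusted p = 0.0214, edgeR) in control cells and 1.12 (SE 0.27, adjusted p = 0.0459, edgeR) in knockout cells, that is 2.31-fold and 2.17-fold higher. The interaction was -0.08 (SE 0.39, adjusted p = 1.0, edgeR), and the genotypes differed by 0.06 without IR and by -0.00 after IR, with SE of 0.25 and 0.28.

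The IDH3A calls were lost when some libraries were left out. In control cells the adjusted p of edgeR was 0.0555 without replicate A and 0.103 without replicate B of untreated cells, with log2 fold changes of 1.25 and 1.15. In knockout cells it was 0.126 without replicate B of untreated cells and 0.0547 without replicate B after IR, with log2 fold changes of 0.85 and 0.81. IDH3A (ENSG00000166411, chromosome 15, 78131498 to 78171945, plus strand, GRCh38) shares these bases with ACSBG1, which held 1 to 7 counts per library, and 38 with CIB2, which held 32 to 71.

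The other subunits of the same enzyme did not follow IDH3A. IDH3G had log2 fold changes of -0.33 in control cells and -0.16 in knockout cells after IR, and IDH3B had -0.16 and -0.14, none of which passed.

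IDH3B differed by genotype. It was measured at 134 and 142 normalised CPM in untreated control cells and at 87.9 and 106 in untreated knockout cells, and after IR at 136 and 113 in control cells and 97.4 and 80.0 in knockout cells. All 4 knockout libraries were below all 4 control libraries. The log2 fold change was -0.52 (SE 0.15, adjusted p = 0.0383, edgeR) without IR, a 1.44-fold lower level, and -0.48 (SE 0.18, adjusted p = 0.366, edgeR) after IR. With a replicate block the difference after IR passed (adjusted p = 0.00136, edgeR). The call without IR was lost without replicate A (adjusted p = 0.128) or replicate B (adjusted p = 0.435) of untreated control cells and without replicate A of untreated knockout cells (adjusted p = 0.0991, all edgeR), and when all 8 libraries were fitted together (adjusted p = 0.138, edgeR).

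IDH3B (ENSG00000101365, minus strand) lies on chromosome 20, at 2658395 to 2664219, and the genes around it were lower too. The median log2 fold change in knockout cells was -0.27 over 419 genes of chromosome 20 without IR and -0.25 over 417 genes after IR, the lowest of the chromosomes that hold members. In a window of 5 Mb on either side, chosen after the values were seen, the median of 71 genes was -0.31 without IR and -0.29 after IR, and 20 and 16 of these genes had lower values than IDH3B. The part of this shared shift in the IDH3B difference was not tested.

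The NADP-dependent isocitrate dehydrogenases did not pass in edgeR without a replicate block. IDH2, the mitochondrial form, was at 56.5 and 56.7 normalised CPM in untreated control cells and 41.4 and 43.1 in untreated knockout cells, which corresponds to a log2 difference of -0.43 (adjusted p = 0.118, edgeR). The same difference was -0.37 after IR (adjusted p = 0.554, edgeR). IDH1, the cytosolic form, had values of -0.27 and -0.13 between genotypes and of 0.31 and 0.42 after IR.

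OGDHL gave the largest genotype difference of the list. It encodes an alternative form of the first enzyme of the oxoglutarate dehydrogenase complex, and OGDH encodes the common form. In control cells OGDHL had 35 and 30 counts without IR and 27 and 65 after IR, or 2.15, 1.61, 1.75 and 2.09 normalised CPM. In knockout cells it had 4 and 4 counts without IR and 6 and 6 after IR, or 0.225, 0.272, 0.309 and 0.294 normalised CPM. The 4 knockout libraries were all far below the 4 control libraries, while the control libraries with and without IR overlapped.

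The log2 fold change of OGDHL was -2.90 (SE 0.56, adjusted p = 0.00328, edgeR) without IR and -2.65 (SE 0.45, adjusted p = 0.0429, edgeR) after IR. Fitted values of such low counts depend on the prior count. From the summed counts and library sizes, control cells held 7.55 times as much as knockout cells without IR (exact 95% interval 3.61 to 18.2) and 6.56 times after IR (3.58 to 13.2), intervals that cover counting error only. OGDHL made up 0.611% to 1.10% of the counts of OGDH and OGDHL together in the control libraries and 0.114% to 0.152% in the knockout libraries. As OGDH holds nearly all of these counts, the sum of both genes barely follows OGDHL. The call after IR was lost without replicate B of control cells after IR (adjusted p = 0.0602) or replicate B of knockout cells after IR (adjusted p = 0.0731, both edgeR).

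OGDH was measured at 193 and 200 normalised CPM in untreated control cells and 284 and 258 after IR, and at 182 and 178 in untreated knockout cells and 222 and 258 after IR. Its log2 fold change after IR was 0.45 (adjusted p = 0.101, edgeR) in control cells and 0.40 (adjusted p = 0.115, edgeR) in knockout cells, and it was -0.14 and -0.17 between genotypes. DLST, the succinyltransferase core of the complex, had values of -0.18 and -0.13 between genotypes and of 0.20 and 0.22 after IR. None of the OGDH and DLST values passed.

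Succinyl-CoA synthetase pairs the common alpha subunit SUCLG1 with an ATP-forming (SUCLA2) or a GTP-forming (SUCLG2) beta subunit. After IR the log2 fold change of SUCLG1 was 0.00 in control cells and 0.05 in knockout cells. Those of SUCLA2 were 0.23 and 0.52 and those of SUCLG2 0.43 and 0.71, with adjusted p from 0.0669 to 0.552 (edgeR). SUCLG2 was measured at 75.3 and 67.3 normalised CPM in untreated control cells, 84.6 and 108 after IR, 67.5 and 51.2 in untreated knockout cells and 81.5 and 115 after IR. The irradiated libraries were higher in both genotypes, with replicate B again the higher of each irradiated pair.

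Succinate dehydrogenase, which is also complex II of the respiratory chain, consists of the flavoprotein SDHA, the iron-sulfur protein SDHB and the membrane anchors SDHC and SDHD. Both anchors rose after IR in knockout cells. SDHC was at 84.4 and 77.9 normalised CPM without IR and at 121 and 127 after IR in these cells, and at 98.1 and 93.8 without IR and 129 and 138 after IR in control cells. The irradiated libraries were above the untreated ones in both genotypes by more than the replicates differed. The log2 fold change was 0.59 (SE 0.15, adjusted p = 0.0488, edgeR) in knockout cells, a 1.51-fold higher level, and 0.47 (SE 0.16, adjusted p = 0.0955, edgeR) in control cells.

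SDHD was at 40.2 and 45.0 normalised CPM without IR and at 64.9 and 68.2 after IR in knockout cells, and at 50.5 and 46.9 without IR and 55.3 and 59.7 after IR in control cells. The irradiated knockout libraries were the highest and the untreated knockout libraries the lowest. The log2 fold change after IR was 0.63 (SE 0.16, adjusted p = 0.0488, edgeR) in knockout cells, a 1.54-fold higher level, and 0.23 (SE 0.17, adjusted p = 0.417, edgeR) in control cells. The interaction had the smallest unadjusted p of the list and still missed the threshold (0.40, SE 0.20, unadjusted p = 0.0701, adjusted p = 1.0, edgeR).

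Both anchor calls were close to the threshold and were lost with upper quartile normalisation (adjusted p = 0.0541 for SDHC and 0.0531 for SDHD, edgeR). They were also lost without replicate A (0.0650 and 0.148) or replicate B (0.317 and 0.162) of untreated knockout cells or without replicate B after IR (0.189 and 0.159), as adjusted p from edgeR. SDHD (ENSG00000204370, chromosome 11, 112086824 to 112120016, plus strand) shares 319 exonic bases with a protein-coding gene on the same strand, ENSG00000255292. SDHC (ENSG00000143252) lies on chromosome 1, at 161314381 to 161363206.

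The catalytic subunits of succinate dehydrogenase did not pass. SDHA had log2 fold changes of 0.25 and 0.20 after IR and SDHB of 0.09 and 0.29, in control and knockout cells in turn. SDHA has close pseudogene copies, of which SDHAP1 was counted at 8.95 to 13.6 and SDHAP4 at 7.76 to 12.0 normalised CPM, so that the 144 to 205 normalised CPM of SDHA may be split with them in the counting. SDHA also shares 1887 exonic bases with a protein-coding gene on the same strand, ENSG00000286001. How reads from these bases were counted is not given in the sources used here.

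FH, which hydrates fumarate, was the steadiest member, between 269 and 311 normalised CPM over the 8 libraries, with log2 fold changes of 0.02 to 0.05. MDH1, the cytosolic malate dehydrogenase, had values of 0.35 (adjusted p = 0.188, edgeR) and 0.48 (adjusted p = 0.0717, edgeR) after IR in control and knockout cells, and MDH2 had 0.02 and 0.16. Between genotypes neither went beyond -0.20 and neither passed.

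**Figure D3:**
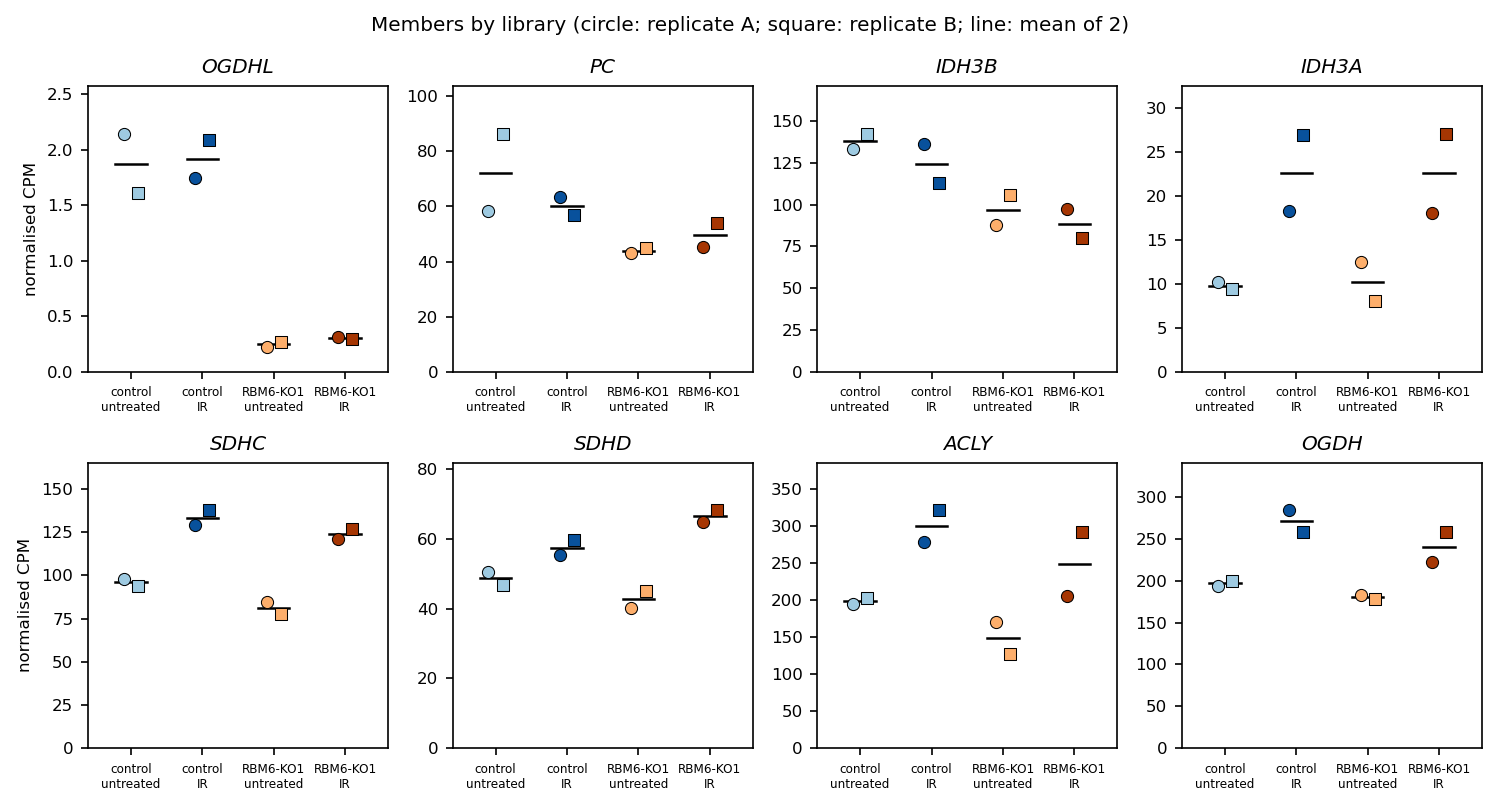
Normalised CPM of 8 members in each of the 8 libraries on linear axes from 0, with a circle for replicate A, a square for replicate B and a line at the mean of 2. OGDHL, PC and IDH3B lie lower in knockout libraries, IDH3A lies higher in all 4 irradiated libraries, and SDHC, SDHD, ACLY and OGDH lie higher after IR in both genotypes.

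The stretches just upstream of 3 of these genes are shown because the genes passed in different settings. IDH3A passed after IR in both genotypes, SDHD after IR in knockout cells alone and close to the threshold, and OGDHL between the genotypes. RefSeq promoter sequence (GRCh38.p14) was matched for 28 of the 31 members. The 250 bases before the first listed RefSeq start are IDH3A at chr15:78149112-78149361 on the plus strand, SDHD at chr11:112086623-112086872 on the plus strand and OGDHL at chr10:49762324-49762573 on the minus strand, written 5′ to 3′. Capitals mark matches, on either strand, to the letters given after them.
IDH3A: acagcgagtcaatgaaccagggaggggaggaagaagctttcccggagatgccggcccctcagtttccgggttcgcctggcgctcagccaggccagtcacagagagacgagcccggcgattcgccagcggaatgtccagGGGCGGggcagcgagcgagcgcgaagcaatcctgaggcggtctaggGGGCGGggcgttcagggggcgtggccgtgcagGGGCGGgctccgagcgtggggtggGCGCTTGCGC
SDHD: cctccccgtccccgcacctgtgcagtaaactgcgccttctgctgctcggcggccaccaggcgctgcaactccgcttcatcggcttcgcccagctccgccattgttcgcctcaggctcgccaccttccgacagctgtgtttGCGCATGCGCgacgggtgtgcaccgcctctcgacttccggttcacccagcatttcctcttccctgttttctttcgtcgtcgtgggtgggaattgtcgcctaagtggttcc
OGDHL: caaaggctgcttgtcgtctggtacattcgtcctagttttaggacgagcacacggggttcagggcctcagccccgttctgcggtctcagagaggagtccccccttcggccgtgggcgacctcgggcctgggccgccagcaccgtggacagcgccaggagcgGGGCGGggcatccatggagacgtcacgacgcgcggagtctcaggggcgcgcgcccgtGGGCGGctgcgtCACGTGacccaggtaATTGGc

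In each case the GENCODE gene begins upstream of this RefSeq start, so that the stretch may be partly transcribed. The IDH3A stretch holds 70% G and C, 1 match to the core of the NRF1 motif (GCGCA and GCGC around any base), whose factor is known for driving genes of mitochondrial proteins, and 3 matches to the GC box (GGGCGG). The SDHD stretch holds 62.8% G and C and 1 NRF1 match, and the OGDHL stretch 68.4% G and C, 2 GC boxes, 1 E-box (CACGTG) and 1 CCAAT box (CCAAT). No base belonged to 2 matches.

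Across the 28 members matched, the NRF1 letters were found in 6 (IDH3A, IDH3G, MPC2, SDHA, SDHD and SUCLA2), or 21.4%, and in 5.53% of 27305 promoters of the same length. The estrogen-related receptor letters (AAGGTCA) were in 2 of 28 members and 3.46% of all, the E-box in 2 and 6.49%, the CCAAT box in 14 and 33.0%, and the GC box in 18 and 42.3%. The cyclic AMP response letters (TGACGTCA) were in 0 of 28 and in 1.77% of all. Of the 6 members with the NRF1 letters, IDH3A and SDHD rose after IR in knockout cells, while IDH3G, MPC2, SDHA and SUCLA2 did not pass. These matches describe letters and not binding.

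Genes that feed or regulate the cycle were taken from a separate list of 41, of which 36 to 39 were tested in each comparison. Their median log2 fold changes were -0.08 and -0.05 between genotypes without and after IR, and 0.16 and 0.22 after IR in control and knockout cells. Between genotypes without IR 2 of the 36 tested fell in knockout cells and 0 rose, against 3.73% and 2.38% of all genes. ACSS2, which makes acetyl-CoA from acetate in the cytosol, was at 105 and 123 normalised CPM in untreated control cells and 52.8 and 51.0 in untreated knockout cells. Its log2 fold change was -1.15 (SE 0.15, adjusted p = 0.00010, edgeR), and like IDH3B it lies on chromosome 20. GPT2, the mitochondrial alanine transaminase that links pyruvate to oxoglutarate, was at 43.3 and 47.8 and at 28.2 and 31.4 normalised CPM in the same groups, a log2 fold change of -0.63 (SE 0.17, adjusted p = 0.0298, edgeR).

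After IR the genotype comparison gave 0 calls on that list in edgeR, with 5 of 39 genes at an unadjusted p under 0.05 against 11.1% of all genes. DESeq2's Wald test gave 2 lower calls, where it called 1.82% of all genes lower. The log2 fold changes of ACSS2 and GPT2 after IR were -0.83 and -0.69 in edgeR. IR in control cells gave 0 calls in edgeR, with 11 of 38 genes at an unadjusted p under 0.05 against 25.4% of all genes. DESeq2 gave 1 higher call, where it called 4.42% of the genes with an adjusted p higher.

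In knockout cells IR gave 1 higher and 1 lower call among the 37 genes of the list tested, against 2.44% and 3.23% of all genes. PDK2, a kinase that inactivates pyruvate dehydrogenase, was at 3.94 and 3.94 normalised CPM without IR and 7.52 and 7.88 after IR, with a log2 fold change of 0.95 (SE 0.23, adjusted p = 0.0484, edgeR), and 0.61 (adjusted p = 0.181, edgeR) in control cells. SLC25A10, the mitochondrial dicarboxylate carrier, was at 8.15 and 9.37 normalised CPM without IR and 4.90 and 3.18 after IR, with a log2 fold change of -1.13 (SE 0.27, adjusted p = 0.0454, edgeR), and -0.26 (adjusted p = 0.647, edgeR) in control cells. The interaction passed for 0 genes of the list in edgeR and in DESeq2. At an unadjusted p under 0.05 in edgeR there was 1 of 39 genes, against 1.85% of all genes.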

How the data were processed

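Messenger RNA was sequenced from 8 libraries of MCF10A-Hras cells as paired reads of 150 bases. The authors deposited raw counts per Ensembl gene without normalisation. The submitters' processing notes name STAR, DESeq2 and hg38 without a version; the counting tool, annotation and strandedness are not given in the sources used here. GENCODE release 44 symbols matched 57392 identifiers, and 841 had none. The tests used edgeR 4.0.16 under R 4.3.3 (TMM, filterByExpr with a minimum count of 10, quasi-likelihood F test, Benjamini-Hochberg adjustment over all genes tested), each genotype or IR comparison on its own 4 libraries and the interaction on all 8. A gene passed at an adjusted p under 0.05. The SE is the log2 fold change divided by the square root of F. CPM were normalised with TMM over all 8 libraries. DESeq2 1.42.0 gave the Wald test. The tests were tested on simulated data. The members and lists were chosen with earlier results of these data known.

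Values in every library are given for members that passed in any test, for the 2 members with the smallest p in each test and for members never tested; genes of the other list are named where they passed, and 1 gene of that list is not reported here. PDHX, DLAT, SUCLG2, OGDH and IDH2 were described further after their values were seen. Pseudogenes were taken as annotated pseudogenes named after a member. Replicate letters were checked for pairing by correlating deviations from group means over 16549 genes (-0.28 to 0.35 between groups). The highest value, 0.35, was between control and knockout cells after IR, and that between the untreated genotypes was 0.079. The labels state no pairing, so the main tests used none. Replicates within a group had Pearson correlations of 0.983 to 0.986 and differed by more than sampling noise. B minus A in log2 CPM had a rank correlation with GC content of 0.39 in untreated control cells and -0.38 after IR. In knockout cells it was 0.15 without IR and -0.23 after IR. The authors call the replicates biological without saying whether cultures were separate, so p-values measure the spread between these samples. The alternatives were other normalisations, filters and tests, GC and length trends, a replicate block, a joint fit of all libraries and the omission of each library in turn.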

Additional observations from a re-analysis of the deposited data

How the results depend on the processing

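The log2 fold changes of the members named by the selection rule kept their sign under every alternative run for them. Counts of members past an adjusted p under 0.05 moved more. For knockout against control cells without IR the count of 3 became 1 when all 8 libraries were fitted together and 1 to 3 when a library was left out. After IR the count of 1 became 0 when at least 10 counts were required in every library, which removes OGDHL, 5 with a replicate block (DLD, IDH2, IDH3B, OGDHL and ACLY, where 15.5% of all genes passed) and 0 to 1 when a library was left out. For IR in control cells the count of 1 became 2 with DESeq2's Wald test, 5 without a filter and 0 to 8 when a library was left out. For IR in knockout cells the count of 3 became 1 with upper quartile normalisation, 9 with DESeq2's Wald test, 9 without a filter, 1 with the replicate block and 0 to 9 when a library was left out. The interaction count was 0 under every alternative. A crossed pairing, A of one group with B of the other, was added after seeing the data because deviations of the paired groups correlated at -0.18 in control and -0.26 in knockout cells. This crossed block gave 6 members for IR in control cells and 18 in knockout cells, where 25.8% and 44.4% of all genes passed.

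Deviations by letter correlated at 0.35 between control and knockout cells after IR, but the labels state no pairing. These block values therefore describe shared letters, and the cause of the moves was not tested. With the block IDH3B passed after IR (adjusted p = 0.00136, edgeR). The median log2 fold change of the members ran from -0.23 to -0.11 (without IR) and -0.11 to 0.0020 (after IR) for the genotype, 0.12 to 0.21 (control) and 0.21 to 0.34 (knockout) for IR and 0.065 to 0.16 for the interaction when a library was left out. It moved beyond the replicate SD of 0.047 also to -0.080 for the genotype after IR and 0.19 for IR in knockout cells with the spline trend subtracted, to -0.078 and 0.19 with the block added, and to 0.25 for IR in control cells without a filter. The PC difference of -0.73 became -0.53 with either trend subtracted. Leaving out a library leaves 1 in its group, which is assumed to vary like the other group. At 4 to 65 counts per library OGDHL is limited by depth, and 2 libraries per group limit every test.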
